A study of Mus musculus with 4 samples.

Results

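The NOTCH receptors and their ligands were followed in mouse mammary tumor cells in which the driving NOTCH1 signal was switched off. These are 9 of 18193 genes named on the array, Notch1, Notch2, Notch3, Notch4, Jag1, Jag2, Dll1, Dll3 and Dll4, taken as the complete set of canonical receptors and ligands. They were read by every probe set that carries 1 of these symbols alone, 18 of 45037 probe sets in all, 9 for the receptors and 9 for the ligands. Each gene was represented by its lead probe set, the one that averaged highest on the log2 scale across the 4 arrays, and every other probe set is given beside it. The cells were 2 lines, 8534 and 8542, grown from primary mammary tumors of separate female MMTV-tTA/TOP-ICN1 mice on an FVB/N;B6 background. In both, the MMTV promoter drives the tetracycline transactivator, which turns on a human ICN1 transgene, an always active NOTCH1 intracellular domain. One group received doxycycline at 2 µg/ml for 24 hours, which turns the transgene off, and the other was left untreated with the transgene on. Each line gave 1 array per condition, so that the line was the replicate (n = 2 lines) and no array of a wild-type cell was part of the comparison.

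NOTCH receptors are single-pass membrane proteins that are read out by ligands on a neighbouring cell. Ligand binding exposes the receptor to ADAM proteases and then to gamma-secretase, and the freed intracellular domain joins RBPJ and Mastermind on target genes such as those of the HES and HEY repressors. The Jagged proteins and Dll1 and Dll4 activate receptors on adjacent cells, whereas Dll3 is known mainly for acting within its own cell. In the mammary gland NOTCH signaling is known for favouring the luminal fate.

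The deposited values were log2 MAS5 signals, and signals are given here in units after undoing the log. The 20th percentile of all values was 5.52 units, and ratios that reach below this level are uncertain. The arrays were alike in scale, with trimmed mean signals of 97.7 to 101.8 units, and in RNA quality. The 3' to 5' log2 differences were 0.25 to 0.30 for β-actin and -0.45 to -0.37 for Gapdh. Luminal keratins were strong on every array (Krt8 at 3467 to 7165 units, Krt18 at 3558 to 8044 units), and 8 leukocyte markers summed to 290.1 and 222 units in treated and 225 and 250.33 units in untreated cells of lines 8534 and 8542. Among these the pan-leukocyte gene Ptprc read 6.08 to 7.20 units and the macrophage genes Csf1r, Adgre1 and Cd68 read 102 to 123, 36.6 to 57.0 and 34.6 to 67.9 units, and none of the 5 tested was called. In the epithelial lists, 4 of 9 tested luminal markers were higher with doxycycline, where 4.76% of all genes tested were. Of the 9, 2 were lower, where 6.95% were, Elf5 by a log2 change of -2.01 and Krt19 by -0.87. The luminal gene Gata3 lay under 5.52 units on every array and was not tested. Luminal markers summed to 30581 and 22867 units in treated and 25238 and 21288 units in untreated cells of lines 8534 and 8542. Basal markers summed to 9832 and 326 units in treated and 6124 and 268 units in untreated cells, higher in line 8534 than in line 8542 under both conditions. The markers went different ways. In line 8534 Acta2 read 6588 units in treated and 3012 units in untreated cells, whereas Krt14 read 869 and 1379 units. Krt5 fell in line 8534 and rose in line 8542. Of 7 basal markers tested, Cnn1 alone was called and was higher, where 4.76% of all genes tested were. Fibroblast markers summed to 1117 and 177 units in treated and 867 and 180 units in untreated cells of lines 8534 and 8542. That sum, too, was higher in line 8534. Col1a2 read 406 and 288 units in treated and untreated 8534 cells and 71.3 and 64.3 units in 8542 cells, whereas Fap read 13.3 to 19.8 units on all arrays. None of the 8 tested was called. The part of these epithelial and fibroblast markers in the results was not tested. As a check of the switch, 8 of 9 direct NOTCH target genes were called lower with doxycycline, where 6.95% of all genes tested were. By the paper's methods, real-time PCR had shown target genes to respond before the RNA was hybridized, so that this check is not independent. The log2 change was -3.24 in Hey1, -1.76 in Dtx1 and -1.27 in Myc (limma adjusted p = 0.000283, 0.00143 and 0.00465). Hes1 changed by -0.60 and did not pass (limma adjusted p = 0.0579).

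Across the 9 genes, 3 receptors and 1 ligand fell after 24 hours of doxycycline, 1 receptor rose, and the other 4 ligands did not pass the test. By their lead probe sets Notch1, Notch3, Notch4 and Jag1 fell and Notch2 rose. The calls of Notch4 and Jag1 were lost when the probe sets of each gene were averaged (limma adjusted p = 0.585 and 0.183). The test was limma with the cell line as a block, run over 33778 probe sets at or above a mean log2 value of 2.94, with Benjamini-Hochberg adjustment and a call at an adjusted p under 0.05. Of the lead probe sets, 4 of 9 were lower, where 6.95% of the lead probe sets of all 15070 genes tested were lower, and 1 of 9 was higher, where 4.76% were. Counted over all their probe sets, 17 of 18 passed the filter on level, 7 were lower against 5.54% of probe sets and 1 was higher against 3.69%. Of these 7, Jag1 1421106_at passed the filter only through its untreated signals. The median change of the 9 lead probe sets was -0.12 on the log2 scale in line 8534 and -0.15 in line 8542, beside 0.01 and 0.0001 for all genes tested. The calls rest on the variance model: without its intensity trend no probe set on the array passed, and the 5 genes named above had limma adjusted p values of 0.252 to 0.340. Without the block by line they had 0.196 to 0.464.

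**Figure D1:**
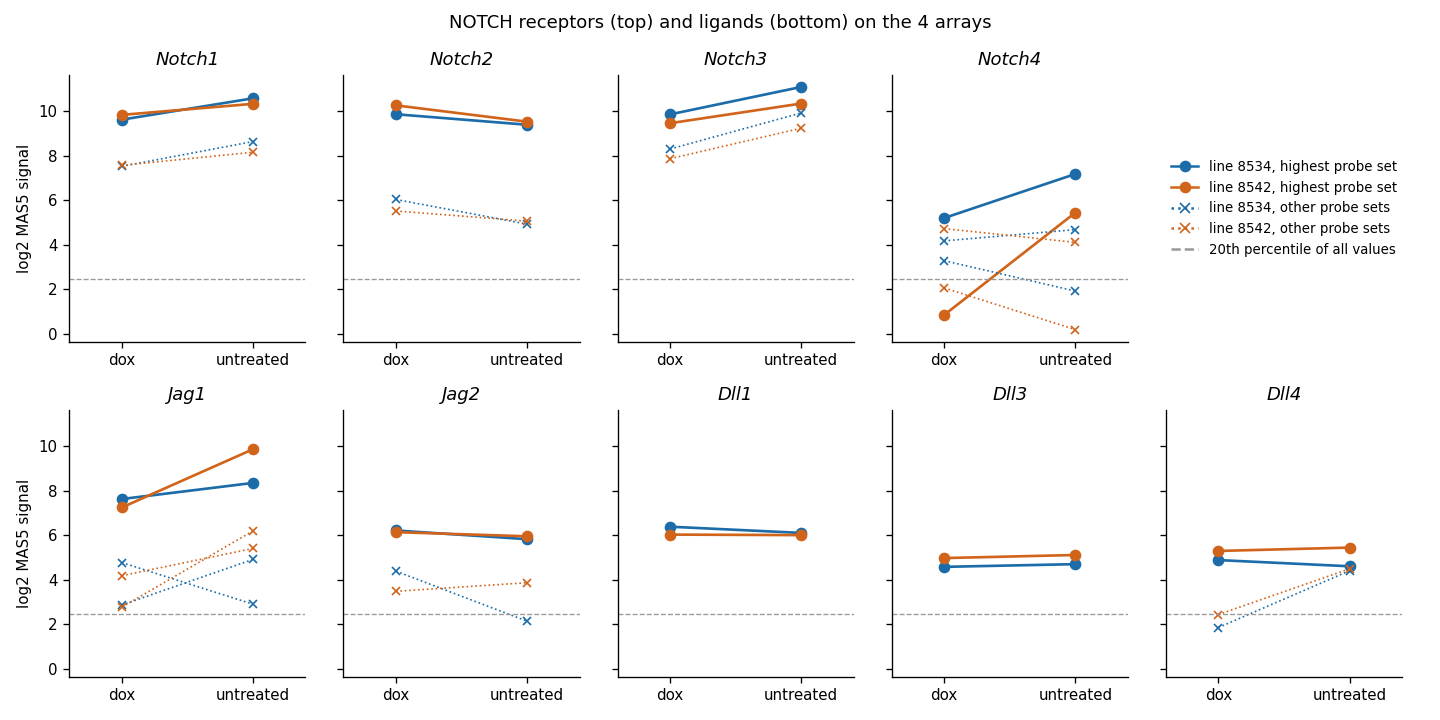
Log2 MAS5 signal (vertical axis) of the 4 receptors (top row) and 5 ligands (bottom row) on doxycycline-treated (dox) and untreated arrays, 1 point per array, joined within each line. Solid lines are the lead probe sets, dotted lines the other probe sets, and a dashed line is drawn at the 20th percentile over all arrays (2.47). Notch1 and Notch3 lie lower with doxycycline in every pair, Notch2 lies higher, and the probe sets of Notch4 and Jag1 run in different directions.

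Notch1, the endogenous mouse receptor gene, is the gene whose human intracellular domain forms the transgene. Its lead probe set (1418634_at) read 789 units in treated and 1532 units in untreated 8534 cells, and 915 units in treated and 1291 units in untreated 8542 cells. Both treated arrays lay below both untreated arrays. The treated signal was lower by 1.94-fold in 8534 and by 1.41-fold in 8542 cells, a log2 change of -0.73 ± 0.33 (mean and SD of n = 2 lines, limma adjusted p = 0.0204). The other Notch1 probe set (1418633_at), at 185 and 190.04 units in treated and 399 and 286 units in untreated cells of lines 8534 and 8542, fell as well, by 0.85 on the log2 scale (limma adjusted p = 0.0255). The probe sets were designed to the mouse transcript, and whether they also bind the human transgene RNA was not tested, so that this gene is no check of the switch.

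Notch3, a receptor that is known as a responder to NOTCH signaling in other cells such as vascular smooth muscle, gave the lowest adjusted p among the lead probe sets of the members. Its lead probe set (1421965_s_at) read 929 units in treated and 2184 units in untreated 8534 cells, and 706 units in treated and 1303 units in untreated 8542 cells. The groups did not overlap. The signal was 2.35-fold lower with doxycycline in 8534 and 1.85-fold lower in 8542 cells, or -1.06 ± 0.25 on the log2 scale (mean and SD of n = 2 lines, limma adjusted p = 0.00334). The suffix _s of this probe set means that its probes match more than 1 transcript. The probe set without that suffix (1421964_at) read 316 and 234 units in treated and 972 and 605 units in untreated cells of lines 8534 and 8542. That is 3.07-fold and 2.58-fold lower, or -1.49 ± 0.18 on the log2 scale (limma adjusted p = 0.00124), so that the Notch3 fall was past 2-fold in both lines by this probe set only.

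Notch2 moved the other way. Its lead probe set (1455556_at) read 933 units in treated and 673 units in untreated 8534 cells, and 1229.9 units in treated and 741 units in untreated 8542 cells, with both treated arrays above both untreated ones. The rise averaged 0.60 ± 0.18 on the log2 scale (SD of n = 2 lines, limma adjusted p = 0.0266), which was under 2-fold in each line. With no filter on level its adjusted p lay just under the threshold (limma adjusted p = 0.049957). The dimmer probe set (1451889_at) read 65.7 and 46.0 units in treated and 30.5 and 33.5 units in untreated cells of lines 8534 and 8542. Its change was 0.78 ± 0.46 on the log2 scale with a limma adjusted p of 0.167, in the same direction in both lines.

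Notch1, Notch3 and Notch2 were thus the members with 2 probe sets that ran in 1 direction within each gene and in both lines. Bulk RNA does not tell fewer cells that express a gene from less of its RNA in each cell. Proliferation genes were read beside these receptors, of which Notch1 and Notch3 fell and Notch2 rose. All 14 tested were called lower, where 6.95% of all genes tested were, with a median log2 change of -3.37. The deepest falls were in Tk1 (-4.80), Rrm2 (-4.48), Mcm5 (-4.16) and Mki67 (-3.98). The part of the proliferation genes in the receptor changes was not tested.

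The bases upstream of these 3 genes are shown because they were the receptors with probe sets that ran in 1 direction, and the lead probe sets of Notch1 and Notch3 fell whereas that of Notch2 rose. Each line gives 200 bases, from 250 to 51 bases before the annotated start, 5′ to 3′ on the strand of the gene, from RefSeq on GRCm38.p6. Capitals mark GC boxes, written GGGCGG or CCGCCC, the sequence that Sp1 family factors are known to bind. Notch1 lies at chr2:26503873-26504072 (minus strand), Notch3 at chr17:32166941-32167140 (minus strand) and Notch2 at chr3:98013288-98013487 (plus strand).
Notch1: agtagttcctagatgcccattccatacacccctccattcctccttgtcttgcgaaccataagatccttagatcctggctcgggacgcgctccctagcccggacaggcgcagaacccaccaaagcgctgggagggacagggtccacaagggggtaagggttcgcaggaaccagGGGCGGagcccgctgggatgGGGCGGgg
Notch3: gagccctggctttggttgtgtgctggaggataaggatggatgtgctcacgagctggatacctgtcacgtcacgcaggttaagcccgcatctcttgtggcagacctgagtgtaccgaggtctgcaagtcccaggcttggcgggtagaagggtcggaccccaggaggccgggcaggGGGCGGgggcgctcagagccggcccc
Notch2: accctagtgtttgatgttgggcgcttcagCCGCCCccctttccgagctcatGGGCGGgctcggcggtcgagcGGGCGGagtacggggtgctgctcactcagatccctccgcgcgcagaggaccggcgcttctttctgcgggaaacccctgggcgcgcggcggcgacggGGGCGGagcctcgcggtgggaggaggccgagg

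The 200 bases held 2 GC boxes in Notch1, 1 in Notch3 and 4 in Notch2, and 24.6% of 32851 mouse promoter windows of this length held at least 1. The core RBPJ motif TGGGAA was searched on both strands of the full windows, which run from 250 bases before to 50 bases after the start. It stood in 0 of the 10 windows of the 9 genes, the falling and the rising ones alike, beside 25.6% of all 32851 windows. The longer form GTGGGAA stood in 6.38% of all windows and in 0 of the 10. Among the direct target genes a window was given for 4, and the motif stood in those of Hes5 and Hey2 but not in those of Dtx1 and Nrarp. No match says only that these letters are not in this window.

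Notch4, a receptor known from endothelium and as the site of viral insertions in mouse mammary tumors, had the deepest fall by its lead probe set and had probe sets that disagreed. The lead probe set (1449146_at) read 36.9 units in treated and 145 units in untreated 8534 cells, and 1.81 units in treated and 43.7 units in untreated 8542 cells. Both treated arrays lay below both untreated ones, but the treated 8542 signal lay under the 5.52 units of the 20th percentile. The log2 change averaged -3.29 ± 1.85 (SD of n = 2 lines, limma adjusted p = 0.0168). With that signal raised to the 20th percentile the falls were 3.94-fold in 8534 and 7.92-fold in 8542 cells. It was the only lead probe set past 2-fold in both lines, 1 of 9 lower where 4.42% of all genes were, and 0 of 9 were higher where 3.09% were.

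The other Notch4 probe sets did not fall with it. Probe set 1456263_at read 18.1 and 26.6 units in treated and 25.7 and 17.3 units in untreated cells of lines 8534 and 8542, so that it moved in opposite directions (mean log2 fold change 0.06; limma adjusted p = 0.962). Probe set 1436901_at read 9.79 and 4.19 units in treated and 3.80 and 1.15 units in untreated cells. It was higher in both lines, but 3 of its 4 signals lay under 5.52 units and it was not tested. When the 3 Notch4 probe sets were averaged the change was -0.54 with a limma adjusted p of 0.585, and the call was lost.

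Endothelial markers were read beside Notch4 and Dll4, since both genes are known from endothelium. The receptor genes Tek (-2.10, limma adjusted p = 0.0303) and Flt1 (-1.25, limma adjusted p = 0.00308) were lower with doxycycline. They were 2 of 9 tested markers of that cell type, where 6.95% of all genes tested were lower, and 7 did not pass. The summed signal over 12 markers was 341 and 605 units in treated and 658 and 716 units in untreated cells of lines 8534 and 8542. Tie1 and Vwf lay under 5.52 units on every array, and Pecam1 read 4.50 and 7.22 units in treated and 5.32 and 17.4 units in untreated cells. None of them passed the filter on level. Other markers were brighter, with Kdr at 68.1 to 105 units and Flt1 at 126 to 424 units. Erg read 4.01 and 176 units in treated and 17.0 and 75.3 units in untreated cells. The part of Tek and Flt1 in these results was not tested.

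Jag1, a Jagged ligand that is much studied in human breast cancer, fell unevenly between the lines. Its lead probe set (1434070_at) read 197 units in treated and 325 units in untreated 8534 cells, and 152 units in treated and 927 units in untreated 8542 cells. The treated arrays lay close together and below both untreated arrays, which were far apart. The fall of Jag1 was 1.65-fold in 8534 and 6.12-fold in 8542 cells, or -1.67 ± 1.34 on the log2 scale (mean and SD of n = 2 lines, limma adjusted p = 0.0374). The difference between the lines could not be tested with 1 array per line and condition.

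A second Jag1 probe set (1421106_at) fell as well, at 7.28 and 6.80 units in treated and 30.1 and 73.1 units in untreated cells of lines 8534 and 8542 (log2 change -2.74 ± 0.97, limma adjusted p = 0.0180). The third (1421105_at) ran in opposite directions, at 27.3 units in treated and 7.46 units in untreated 8534 cells, and at 18.1 units in treated and 42.3 units in untreated 8542 cells. In line 8542 all 3 probe sets were thus lower with doxycycline, and in line 8534 2 of 3 were. The call of the lead probe set was lost with no filter on level (limma adjusted p = 0.0804), with quantile normalization (0.0594) and with its 3 probe sets averaged (0.183).

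Jag2, the other Jagged ligand, was slightly higher with doxycycline by its lead probe set (1426430_at), at 74.0 and 70.3 units in treated and 56.5 and 61.8 units in untreated cells of lines 8534 and 8542. The groups did not overlap, but the change of 0.29 ± 0.14 on the log2 scale (SD, n = 2 lines) did not pass (limma adjusted p = 0.516), and its 95% interval ran from -0.23 to 0.81. The dim probe set of Jag2 (1426431_at) read 20.9 units in treated and 4.39 units in untreated 8534 cells, and 11.2 units in treated and 14.6 units in untreated 8542 cells, again in opposite directions.

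The Delta-like ligands changed least by their lead probe sets. Dll1 (1419204_at) read 83.3 and 65.1 units in treated and 68.6 and 64.1 units in untreated cells of lines 8534 and 8542, a log2 change of 0.15 with a 95% interval from -0.36 to 0.66 (limma adjusted p = 0.755). Dll3 (1449236_at) read 23.9 and 31.4 units in treated and 26.0 and 34.5 units in untreated cells, a change of -0.13 with an interval from -0.90 to 0.64 (limma adjusted p = 0.870). In both genes the treated and untreated arrays overlapped. The intervals leave room for changes of nearly 2-fold in Dll3 and do not show that these genes stayed level.

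Dll4, a ligand best known from sprouting vessels, was read differently by its probe sets. The lead probe set (1421827_at) read 29.5 and 39.1 units in treated and 24.3 and 43.5 units in untreated cells of lines 8534 and 8542, with overlapping groups and a change of 0.06 (limma adjusted p = 0.938). The other (1421826_at) read 3.61 and 5.41 units in treated and 21.1 and 22.5 units in untreated cells, and the treated signals were both under 5.52 units. Its change was -2.30 ± 0.35 on the log2 scale and was past 2-fold in both lines, but at a limma adjusted p of 0.0995 it was not called. With the treated signals raised to 5.52 units it was 3.83-fold and 4.06-fold lower. This probe set, too, passed the filter on level only through its untreated signals.

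**Figure D2:**
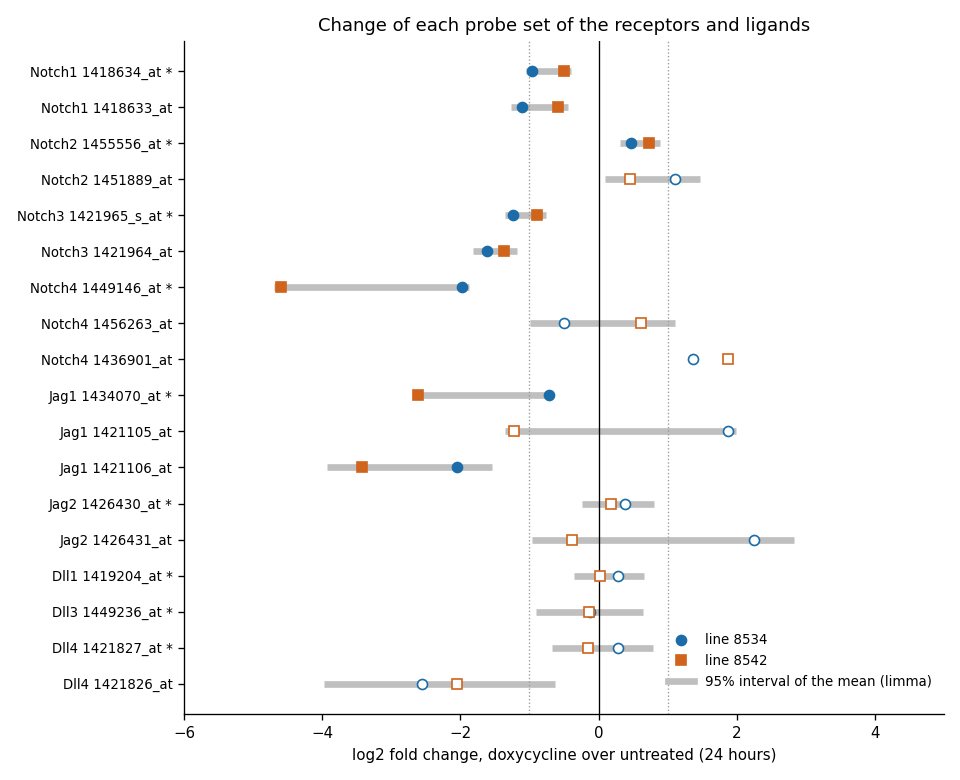
Log2 fold change, doxycycline over untreated (horizontal axis), of each of the 18 probe sets, with 1 circle for line 8534 and 1 square for line 8542. Asterisks mark lead probe sets, filled symbols those called by limma, grey bars the 95% interval of the mean change, and dotted lines 2-fold. Notch4 1436901_at was not tested and has no bar. The pairs of points lie close together for Notch1, Notch2 and Notch3 and far apart for Jag1 1421105_at, Jag2 1426431_at and Notch4 1449146_at.

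Counting changes beyond 2-fold in the 2 lines alike, 4 of the 18 probe sets were lower (Notch3 1421964_at, Notch4 1449146_at, Jag1 1421106_at and Dll4 1421826_at) where 4.4% of all probe sets were, and 1 was higher (Notch4 1436901_at) where 3.44% were. In 4 of 18 probe sets the lines moved in opposite directions. They were the lead probe set of Dll4 and 1 other probe set each of Notch4, Jag1 and Jag2. The share of such probe sets over the array was not counted, so this is no trait of the members. Over all tested probe sets the changes of the 2 lines correlated at r = 0.45.

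The genes nearest in pattern were sought for the 5 called members, by the Euclidean distance between the 4 log2 values after each gene was centred on its mean, over 15069 other genes tested. With only 4 arrays such likeness is a description. Notch1 lay nearest to Arhgap29 (distance 0.06) and Fbxo42 (0.06), Notch2 to 4933412E24Rik (0.04) and Pld3 (0.05), and Notch3 to Foxa2 (0.09), a forkhead transcription factor, and Fam118a (0.10). Jag1 lay nearest to Cyp2b13 (0.27) and Tm4sf4 (0.30). Notch4 had no gene as close, with Gsg1l at 0.66 and B3gnt8 at 0.82.

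The rest of the pathway was read by lists. Of the lead probe sets of all 15070 genes tested, 4.76% were higher and 6.95% lower. Beside these shares, 1 call in a short list describes that gene and is no result about the list. Among genes of receptor cleavage, 1 of 8 tested was called: Furin, the convertase that cuts the receptor precursor, rose by 0.70 on the log2 scale (limma adjusted p = 0.0202). Of 7 genes of receptor glycosylation 1 was called, Lfng, the Fringe enzyme that tunes which ligands a receptor answers to, which rose by 2.33 (limma adjusted p = 0.00200). Of 9 genes of ligand endocytosis, which pulls the ligand to expose the receptor, Neurl1b alone was called and fell by 1.54 (limma adjusted p = 0.0299). Of 18 genes of the nuclear complex and its corepressors, the corepressor Tle2 alone was called and rose by 1.08 (limma adjusted p = 0.0355), and Rbpj, the DNA-binding partner of all 4 receptors, changed by 0.56 (limma adjusted p = 0.121).

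Among genes of receptor trafficking and turnover, 2 of 14 fell and 1 rose. The feedback inhibitor Nrarp (-4.71) and the ubiquitin ligase gene Dtx1 (-1.76) fell, and Fbxw7, whose product marks the NOTCH intracellular domain for destruction, rose by 0.63 (limma adjusted p = 0.0414). Of 9 non-canonical ligand candidates 1 was called, the matrix protein gene Postn, which rose by 2.90. Of the direct targets Hes5 (log2 change -5.81), Heyl (-4.12) and Hey2 (-3.95) fell the most beside Nrarp. The list of 9 targets had a median log2 change of -3.56 in line 8534 and -2.92 in line 8542, beside -1.10 and -0.69 for the 4 receptors and 0.28 and -0.14 for the 5 ligands.

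**Figure D3:**
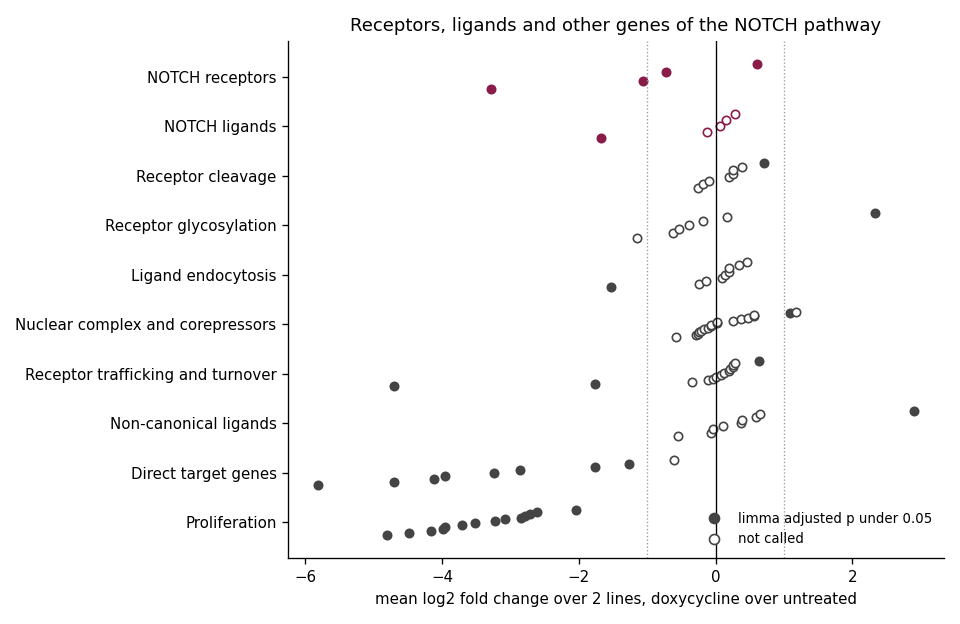
Mean log2 fold change over 2 lines, doxycycline over untreated (horizontal axis), of the lead probe set of each tested gene in the receptor, ligand and other pathway lists, 1 point per gene. Filled points were called by limma, and the dotted lines stand at 2-fold. All 4 receptor points are filled, 3 of them left of 0, whereas 4 of 5 ligand points are open and lie near 0, and the leftmost points are target and proliferation genes.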

How the data were processed

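RNA of cell lines 8534 and 8542, with or without 24 hours of 2 µg/ml doxycycline, was hybridized to Affymetrix mouse genome arrays, 1 per line and condition. The deposited log2 signals of 45101 probe sets were made by the authors with MAS5. That the scale is log2 was read from the values, and the version and scaling target of MAS5 are not given in the sources used. After 64 control probe sets were left out, 34945 of 45037 carried 1 gene symbol (18193 genes). Changes are doxycycline minus untreated log2 values of a line. The fit used limma 3.58.1 in R 4.3.3, with terms for treatment and line, eBayes with trend, and Benjamini-Hochberg adjustment over 33778 probe sets whose mean log2 value reached the 25th percentile. It had 1 residual degree of freedom, and moderation added 6.18. Lines pair the arrays, since each line gave 1 treated and 1 untreated array (deviations from condition means correlated at r = 0.36 across probe sets). The p values rest on a variance that joins the spread between 2 lines to the trend over probe sets of like level, and the trend weighs more. Part of the spread between lines may be technical, and the 4 arrays limit the precision of every value.

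The genes, lists and tests were chosen with earlier results of these data known. Named genes were all 9 members, up to 4 called genes with the largest changes from each pathway list, Hey1, Hes1, Dtx1 and Myc as a check of the switch, and the 2 genes nearest in pattern to each called member. Rbpj and the cell type markers given with values were picked after their values were seen. Promoters are from RefSeq. Alternatives were other filters, no trend, no block, a floor, a pseudocount, quantile normalization, median centring, averaged probe sets, a 1.5-fold rule and each line alone.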

Additional observations from a re-analysis of the deposited data

Results flagged for a closer look

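In 4 probe sets of the receptors and ligands the change with doxycycline had opposite signs in the lines, and the difference was not tested, since each line had 1 array per condition. How often this occurred over the whole array was not counted. The change in line 8542 minus that in line 8534 was -3.09 on the log2 scale for Jag1 1421105_at, -2.63 for Jag2 1426431_at, 1.12 for Notch4 1456263_at and -0.43 for Dll4 1421827_at.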

How the results depend on the processing

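The direction of Notch1, Notch2, Notch3, Notch4, Jag1, Jag2, Dll1 and Dll3 was the same under every alternative that gave a value (at the 50th percentile filter Notch4 was not tested), and that of Dll4, which was not called, turned when its probe sets were averaged (-1.12, limma adjusted p = 0.166) and in line 8542 alone (-0.15, against 0.28 in line 8534 alone). The counts of called members, 4 lower and 1 higher, were 0 lower and 0 higher without the intensity trend, where 3 were lower and 0 higher at an unadjusted p under 0.05, and 0 and 0 without the block by line, where 3 were lower and 1 higher at that level. The count lower was 2 with the probe sets of each gene averaged (Notch1 and Notch3) and 7 when all probe sets of the members were counted, an alternative added after the data were seen. By the 2-fold rule 1 member was lower, and this became 3 with a 1.5-fold rule (Notch3, Notch4 and Jag1), 2 over the mean of probe sets (Notch3 and Dll4), and 2 in either line taken alone (Notch4 and Jag1 in line 8542, Notch3 and Notch4 in line 8534). The shares of all genes under these other forms of the fold rule were not counted, so that these member counts cannot be set against the array. By limma over all probe sets, 1245 were higher and 1872 lower, against 842 and 1404 with no filter, 9 and 83 without the block, and 0 and 0 without the trend (2444 and 2846 at an unadjusted p under 0.05). With averaged probe sets, 434 genes were higher and 747 lower. Low signal limits Notch4, Dll4 1421826_at and the dim probe sets of Jag1 and Jag2.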
